A study of Rattus norvegicus with 6 samples.

Results

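Immediate early transcription factors were examined across the cell classes of the rat cerebral hemisphere in control rats and in rats with acute carbon monoxide poisoning. The set was fixed by name: Fos, Fosb, Jun, Junb, Atf3, Egr1, Nr4a1, Nr4a2, Nr4a3 and Ier2. Of these 10 genes, 9 were measured among 15227 genes in all, and Ier2 is not analysed here. The control group (NC) is described as normal rats and labelled as a negative control. The carbon monoxide group (CO) inhaled the gas at 1000 ppm for 40 minutes and then at 3000 ppm for 20 minutes, until consciousness was impaired and carboxyhemoglobin, hemoglobin that has bound the gas, passed 60%. Strain, sex, age and the time from exposure to sampling are not given in the sources used here. Tissue of both groups was digested with trypsin at 37 °C for 15 to 30 minutes before droplets were made. There were 3 libraries per group, and the design text names 3 rats per group.

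Immediate early genes are transcribed within minutes of a stimulus, without new protein synthesis. Kinase cascades and calcium act on transcription factors such as SRF, the ternary complex factors and CREB that already sit at these genes, and the transcripts are short-lived. In the brain they are used as marks of recent activity in neurons, and they also respond to injury, to cytokines and to the warm enzymatic preparation of cells. Fos and Fosb pair with Jun or Junb to form AP-1, a dimer that binds DNA through a leucine zipper. Atf3 belongs to the same zipper superfamily and is induced by many stresses. Egr1 is a zinc finger factor, and Nr4a1, Nr4a2 and Nr4a3 are orphan nuclear receptors.

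Promoter sequences were available from RefSeq (GRCr8) for 6 of the 10 genes, 5 of them measured, and run from 250 bases before to 50 bases after the start of the gene. They are on another build than the Rnor_6.0 genome to which the reads were mapped. Shown are Nr4a1 and Nr4a2, a pair of receptors whose levels moved together in some classes and apart in others, and Junb, which was lower in the CO macrophage-like cells. Capitals mark matches, on either strand, to the searched motifs: the CRE TGACGTCA, its variant TGCGTCA and the AP-1 site TGANTCA, with the CArG box of SRF and the TATA box TATAAA. No 2 marked matches overlap in the sequences shown.
Nr4a1, chr7:134259888-134260187, plus strand: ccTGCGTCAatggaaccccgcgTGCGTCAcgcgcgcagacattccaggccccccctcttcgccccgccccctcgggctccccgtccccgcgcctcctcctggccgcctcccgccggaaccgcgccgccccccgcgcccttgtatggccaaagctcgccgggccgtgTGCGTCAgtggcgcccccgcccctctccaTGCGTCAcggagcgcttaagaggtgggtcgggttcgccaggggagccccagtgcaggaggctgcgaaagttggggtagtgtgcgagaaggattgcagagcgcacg
Nr4a2, chr3:62104838-62105137, minus strand: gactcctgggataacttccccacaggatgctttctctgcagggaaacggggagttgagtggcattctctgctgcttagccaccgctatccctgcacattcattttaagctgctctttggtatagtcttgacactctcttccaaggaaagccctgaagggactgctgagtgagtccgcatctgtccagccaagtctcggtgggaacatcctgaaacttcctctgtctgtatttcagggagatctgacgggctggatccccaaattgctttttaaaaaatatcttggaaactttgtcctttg
Junb, chr19:40080876-40081175, plus strand: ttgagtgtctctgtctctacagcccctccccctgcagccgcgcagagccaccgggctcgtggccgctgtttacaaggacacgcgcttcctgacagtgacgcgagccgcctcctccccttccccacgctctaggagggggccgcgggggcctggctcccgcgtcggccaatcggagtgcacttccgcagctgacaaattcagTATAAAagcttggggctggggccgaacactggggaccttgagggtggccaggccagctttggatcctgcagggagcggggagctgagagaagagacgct
The Nr4a1 promoter held TGCGTCA 4 times, at 248, 228, 84 and 55 bases before the start, a motif found in 1.9% of 33469 promoters of the same length. In Nr4a2 none of these motifs was found in this window. Junb held TATAAA at 49 bases before the start, and Fosb held it at 180 bases, a motif in 14.2% of all promoters. The Egr1 promoter held 2 CArG boxes, at 105 and 83 bases before the start, against 1.64% of promoters with any. The CRE was in 1.83% and the AP-1 site in 7.33% of promoters, and in none of the 5 promoters of measured members.

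The libraries held between 39494470 and 47322264 unique molecular identifiers (UMIs, 1 per captured transcript). Filters left 19664 cells in NC (median depth 4755 UMIs) and 16878 in CO (median depth 5556 UMIs). Cells were sorted into classes by marker genes, none of them a member, which placed 80.0% of NC and 82.8% of CO cells. In 9 classes every library had at least 30 cells, from 6717 NC and 7398 CO microglia-like cells down to 152 and 163 ependymal-like cells. Neuron-like cells numbered 6 in NC and 31 in CO, so mature neurons, the usual setting for these genes, are not described. Between the libraries of a group, single-cell levels over all genes differed on average hardly more than between parts of 1 pool of cells. The mean ratio of the spread between to the spread within libraries was 1.02 in NC and 1.14 in CO, where such parts give 1. For the 9 members it was 0.80 and 1.28, and in microglia-like cells 1.52 and 0.58. Single members went higher, up to 4.37 for Jun in NC microglia-like and 5.08 for Junb in NC oligodendrocyte-like cells. Over 15 pairs of libraries 1 cell barcode was shared. Each group was therefore counted as 1 sample, and no p-value is given. Levels are given as CPM, UMI counts scaled to a common total with a factor per class and group, and intervals are exact 95% intervals that cover counting error only. A ratio of at least 1.5-fold was taken as the mark for a difference.

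Among these 9 classes in control tissue the macrophage-like cells (Mrc1, Cd163 and F13a1 positive) held the highest level of 8 of the 9 genes. The sparse monocyte or dendritic-like cells, outside the 9, held more of the nuclear receptors, with Nr4a1 at 2169 CPM, Nr4a2 at 786 CPM and Nr4a3 at 454 CPM. In the 3 libraries of macrophage-like cells Fos stood at 11760, 12130 and 12501 CPM and Jun at 10716, 11142 and 12970 CPM. Fos was lowest in astrocyte-like cells, at 282, 293 and 435 CPM, which is 35.4-fold below the macrophage-like cells on the pooled counts. After the macrophage-like cells, mural-like cells (3772 CPM) and neuroblast-like cells (3734 CPM) followed, and their libraries overlapped. Then came endothelial-like (3355 CPM), microglia-like (2860 CPM), ependymal-like (2062 CPM), choroid plexus-like (989 CPM) and oligodendrocyte-like cells (623 CPM), and none of these neighbours in the order overlapped.

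The other genes did not keep the same order of classes. For Jun, microglia-like cells came next to the macrophage-like cells, at 6467, 6633 and 7159 CPM, above endothelial-like cells at 3575, 3678 and 3834 CPM. Atf3 had the steepest range, 186-fold from macrophage-like (7682 CPM) to astrocyte-like cells (41.4 CPM). Egr1 followed in microglia-like (3372 CPM) and then neuroblast-like cells (2944 CPM). Junb by contrast was low in neuroblast-like cells (301 CPM). Of the 9 classes Nr4a1 was highest in macrophage-like cells (1281 CPM), then microglia-like (905 CPM), endothelial-like (496 CPM) and mural-like cells (324 CPM), and the ranges of these 4 classes did not touch. It was lowest in oligodendrocyte-like cells (18.3 CPM). For Nr4a2 the libraries of mural-like cells (251 CPM) overlapped those of macrophage-like (356 CPM) and of microglia-like cells (184 CPM). For Nr4a3 the libraries of microglia-like (124 CPM) and macrophage-like cells (118 CPM) overlapped at the top of the 9 classes.

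**Figure D1:**
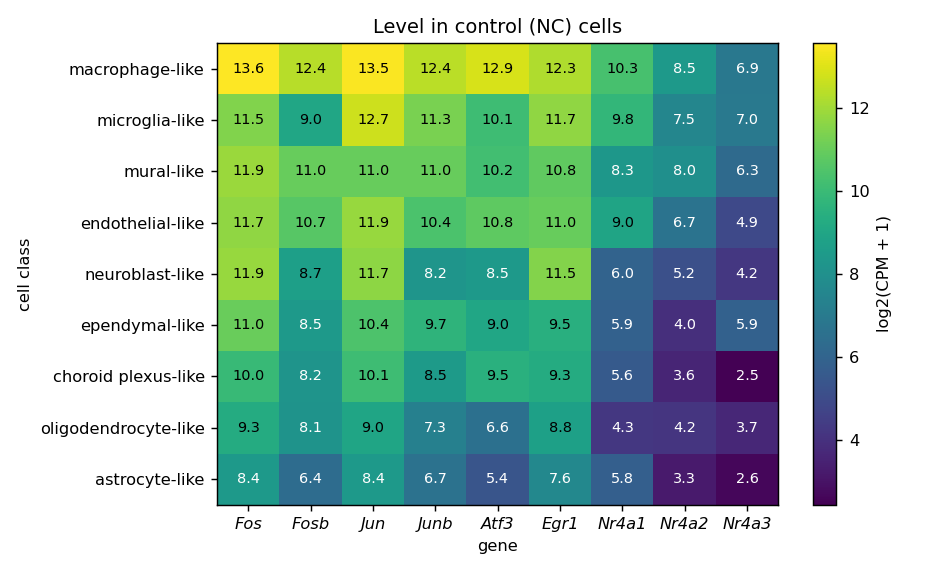
Level of each gene (columns) in each of the 9 compared cell classes (rows) in NC, as log2(CPM + 1) of the pooled counts, to be read down a column. The macrophage-like row is at or near the top of every column, and the oligodendrocyte-like and astrocyte-like rows are near the bottom.

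Across 81 pairs of a class and a gene, 21 were at least 1.5-fold lower in CO and 11 at least 1.5-fold higher. Over all 87627 pairs of these classes with a gene, 13.9% were lower by that mark, and the share of genes higher by it ran from 7.86% to 17.1% over the classes. In 33 member pairs all 3 CO libraries were below all 3 NC libraries, against 17.3% of all pairs, and in 11 all were above, against 17.4%. The direction depended on the class: all 9 genes were below the NC level in microglia-like and in oligodendrocyte-like cells, and 8 of 9 were above it in astrocyte-like and in mural-like cells. With classes taken from clusters, only 3 of 9 were above it in either of these last classes, with medians of -0.17 and -0.21. In mural-like cells it was 2 of 9 in thinned cells and with the stricter gate. Over all gated cells together, Fos stood at 2279 CPM in NC and 2359 CPM in CO, although it was lower in CO in microglia-like cells. The share of microglia-like cells among the gated cells was 42.7% in NC and 53.0% in CO, so levels over all cells mix the shares of classes with levels within them.

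**Figure D2:**
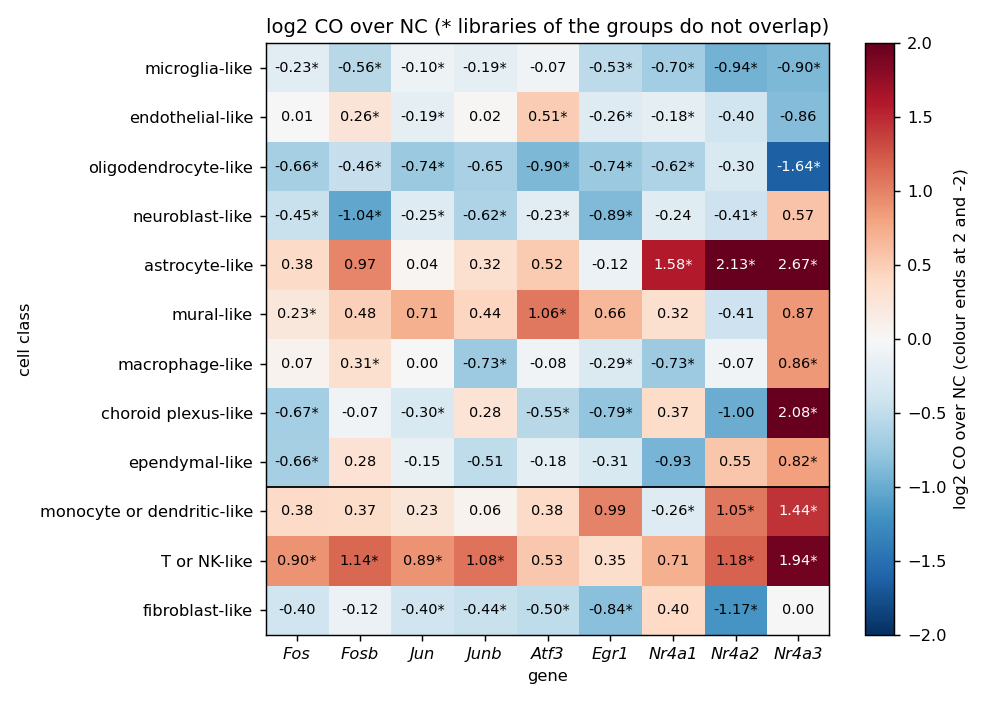
Log2 ratio of CO over NC for each gene (columns) and class (rows), with a star where the 3 libraries of a group did not overlap those of the other. The microglia-like and oligodendrocyte-like rows are below 0 throughout, and the last 3 rows are sparse classes with fewer than 30 cells in some libraries.

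In microglia-like cells (Tmem119, P2ry12 and Cx3cr1 positive) all 9 genes had lower levels in CO, and the 3 nuclear receptors passed the 1.5-fold mark. These 3 of 9 compare with 9.61% of 11713 genes that were at least 1.5-fold lower in this class, and 7.86% were higher. The median log2 ratio of the 9 genes was -0.53, beside -0.00020 for all genes. In 8 of 9 genes all CO libraries were below all NC libraries, against 23.9% of all genes in this class. Nr4a1 stood at 895, 884 and 933 CPM in NC and at 558, 548 and 566 CPM in CO. Nr4a1 was thus 1.62-fold lower in CO (log2 ratio -0.70, interval -0.72 to -0.68). Since each group is counted as 1 sample, the range of its libraries does not measure the spread between rats. Nr4a2 stood at 201, 169 and 184 CPM in NC and at 99.0, 81.3 and 107 CPM in CO, 1.92-fold lower (log2 ratio -0.94). Nr4a3 stood at 102, 151 and 118 CPM in NC and at 60.6, 72.7 and 65.3 CPM in CO, 1.87-fold lower (log2 ratio -0.90, interval -0.97 to -0.84). No CO library reached the lowest NC library for any of these receptors.

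Egr1 and Fosb came just short of the mark. Egr1 stood at 3344, 3466 and 3311 CPM in NC and at 2354, 2266 and 2397 CPM in CO, 1.44-fold lower. Fosb stood at 501, 494 and 565 CPM in NC and at 358, 340 and 361 CPM in CO, 1.48-fold lower. With CPM scaled by total counts alone, or with a stricter marker gate, 5 of the 9 genes passed the mark. The more abundant AP-1 members differed little in size. Fos was 1.17-fold lower, from 2795, 2958 and 2827 CPM to 2447, 2403 and 2461 CPM. Junb was 1.14-fold lower and Jun 1.07-fold lower, with no overlap of libraries in either. Atf3 was the exception, since its libraries overlapped, at 1104, 1157 and 1118 CPM in NC and 1083, 1136 and 1009 CPM in CO.

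**Figure D3:**
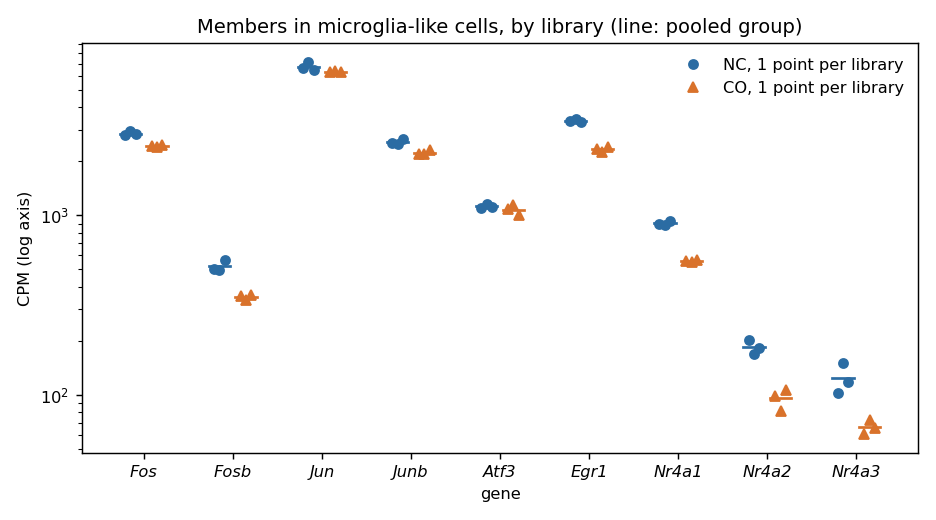
Level of each gene in microglia-like cells, in CPM on a log axis, with 1 point per library and a line at the pooled level of the group. The CO points lie below the NC points for every gene but Atf3, and the gap is widest for Nr4a2 and Nr4a3.

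Most microglia-like cells lay in 5 clusters, made without the members, that took like shares of both groups (34.8% of NC and 34.3% of CO cells in cluster 0, the biggest). The clusters differed strongly in the level of these genes. Cluster 3 held Fos at 5135 CPM in NC, and cluster 5, with 942 NC cells of a median of 3854 UMIs, held it at 113 CPM. The lower level in CO was found inside the clusters: of 41 pairs of cluster and gene with at least 30 counts, 37 were below 0. Nr4a1, Egr1, Fos and Junb were below 0 in all 5 clusters. In cluster 3 Nr4a2 went from 392 to 165 CPM and Nr4a1 from 1715 to 1035 CPM, and 5 of 9 genes were at least 1.5-fold lower against 11.6% of all genes there. Atf3 was the exception in that cluster, with all CO libraries above all NC libraries (1754 and 1952 CPM). In clusters 0 and 1, 2 of 9 genes were at least 1.5-fold lower in each, against 10.1% and 11.0% of genes. The median log2 ratio of the members was -0.37 in cluster 0 and -0.10 in cluster 5.

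Per cell, the summed count of the 9 genes in microglia-like cells thinned to 2000 UMIs had a median of 31 in NC (6098 cells) and 25 in CO (6765 cells). The means of the libraries were 34.6, 36.4 and 34.9 in NC and 28.4, 28.3 and 28.6 in CO, so the groups did not overlap. The share of cells with none of these transcripts was 4.71% in NC and 5.47% in CO, and the 10% of cells with the highest sums held 26.8% and 27.6% of the sum. The genes were only loosely tied to each other within single cells: over 36 pairs of genes the median correlation was 0.24 in NC and 0.19 in CO, and the highest was that of Jun with Egr1, 0.49 and 0.47. These correlations are of cells thinned to the same depth and are given as a description. They rest on few cells for the rarer genes: Nr4a2 and Nr4a3 were seen together in 2.39% of NC cells. Barcodes under 500 UMIs also had less of these genes in CO, with Egr1 at 1487 CPM in NC and 722 CPM in CO. Whether these barcodes hold free RNA or shallow cells was not tested. The part of free RNA in the lower levels was not tested. Macrophage markers summed to 102 to 107 CPM in the NC and 83.2 to 90.0 CPM in the CO microglia-like libraries, against 8573 to 9554 CPM in NC macrophage-like cells. Oligodendrocyte markers summed to 829 to 842 CPM in NC and 1244 to 1258 CPM in CO microglia-like libraries, and their part was not tested. Choroid plexus markers, taken here as a readout of free RNA, summed to 984 to 1080 CPM in NC and 472 to 496 CPM in CO.

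**Figure D4:**
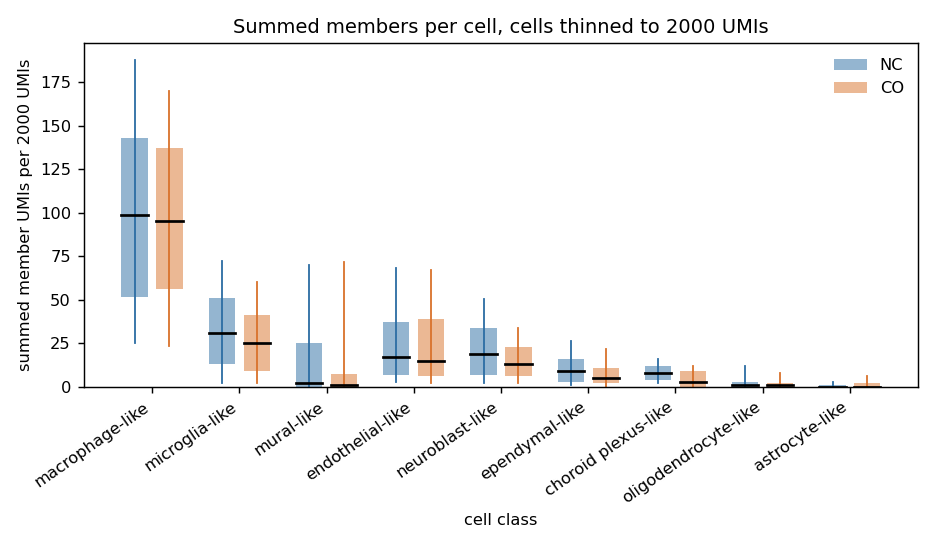
Summed UMIs of the 9 genes per cell after thinning each cell to 2000 UMIs, by class and group. Boxes span the 25th to 75th percentile, lines the 10th to 90th percentile and black bars the median, which is 31 in NC and 25 in CO for microglia-like cells and near 0 in astrocyte-like cells.

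Oligodendrocyte-like cells (Mog, Mag and Opalin positive) started from low levels and had the most members past the mark. In CO 7 of 9 genes were at least 1.5-fold lower, against 9.23% of 11128 genes in this class, and none was higher, against 7.87% of genes. In 7 genes all CO libraries were below all NC libraries, against 18.0% of genes. With classes taken from clusters 4 of 9 genes were lower past the mark. It was 5 of 9 with doublets kept, in deeper or thinned cells, with the stricter gate, and without NC replicate 1 or CO replicate 1. Fos stood at 633, 634 and 602 CPM in NC and at 346, 444 and 394 CPM in CO, 1.58-fold lower (log2 ratio -0.66, interval -0.70 to -0.62). Egr1 stood at 456, 433 and 424 CPM in NC and at 247, 278 and 265 CPM in CO, 1.67-fold lower. Jun was 1.67-fold and Atf3 1.87-fold lower, again without overlap. Nr4a3 stood at 8.80, 7.93 and 18.3 CPM in NC and at 3.85, 1.71 and 5.89 CPM in CO, the lowest ratio of all pairs (log2 ratio -1.64, interval -2.07 to -1.22) on 403 and 54 UMIs. Junb passed the mark although its libraries overlapped. In cluster 2, with 2141 NC and 938 CO cells, Junb (log2 ratio -0.53) and Nr4a1 (-0.06) fell short of the mark. Cluster 8 held 165 NC cells and 1 CO cell. Of 23 pairs of cluster and gene within the class, 22 were below 0. Microglia markers in these cells summed to 152 to 181 CPM in NC and 108 to 145 CPM in CO, against 8144 to 8315 CPM in NC microglia-like cells. Markers of other cells were also lower in CO: those of choroid plexus summed to 964 to 1068 CPM in NC and 259 to 281 CPM in CO, of endothelium to 64.9 to 84.1 and 35.4 to 45.8 CPM, and of fibroblasts to 12.4 to 30.9 and 5.7 to 9.0 CPM. Their part was not tested. At 2000 UMIs, 42.3% of NC and 44.3% of CO cells had no member transcript.

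In neuroblast-like cells (Dcx, Dlx1 and Stmn2 positive) 8 of 9 genes had lower levels in CO, and 3 passed the mark, against 9.81% of 10023 genes lower and 13.3% higher. All CO libraries were below all NC libraries in 7 genes, against 11.8% of genes. Egr1, whose transcript is a classic readout of synaptic activity, stood at 2956, 3049 and 2851 CPM in NC and at 1574, 1498 and 1705 CPM in CO. It was 1.85-fold lower (log2 ratio -0.89, interval -0.93 to -0.84). Fosb stood at 381, 389 and 500 CPM in NC and at 217, 198 and 207 CPM in CO, 2.06-fold lower. Junb was 1.54-fold lower, and Fos, at 3697, 4214 and 3400 CPM in NC and 2558, 2866 and 2769 CPM in CO, 1.37-fold lower. The groups did not overlap in any of these 4 genes. In cluster 24, with 84 NC and 162 CO cells, Fos had a log2 ratio of 0.0040, while Fosb (-0.88) and Egr1 (-0.50) were below 0, and the libraries of these 3 genes overlapped. With classes taken from clusters only Egr1 was still lower past the mark (-0.66), while Fosb and Junb both stood at -0.42. Choroid plexus markers summed to 755 to 1001 CPM in NC and 355 to 450 CPM in CO, and their part was not tested. The per-cell sum had a median of 19 in NC and 13 in CO.

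In endothelial-like cells (Cldn5, Flt1 and Adgrl4 positive) Atf3 and Fosb were higher and Jun lower in CO, all short of the 1.5-fold mark. Atf3 stood at 1889, 1844 and 1683 CPM in NC and at 2572, 2571 and 2537 CPM in CO, 1.42-fold higher. Fosb was 1.20-fold higher, with no overlap, while Fos stayed within the spread of the libraries (log2 ratio 0.014, interval -0.0048 to 0.032). Jun was 1.14-fold, Egr1 1.20-fold and Nr4a1 1.13-fold lower, each without overlap. All CO libraries were thus above NC in 2 genes and below in 3, against 24.4% and 24.6% of all genes. These counts are near the shares of all genes. At the 1.5-fold mark there was 1 gene, Nr4a3, lower on 439 and 205 UMIs, and its libraries overlapped. In this class 14.7% of 10894 genes were lower and 13.4% higher past the mark. The cells lay in different clusters, 84.3% of NC cells in cluster 4 and 87.6% of CO cells in cluster 7, so the comparison is mostly one of cluster 4 in NC with cluster 7 in CO. Monocyte or dendritic markers summed to 855 to 977 CPM in NC and 1683 to 1746 CPM in CO, neutrophil markers to 42.5 to 45.0 and 168 to 194 CPM, and choroid plexus markers to 987 to 1025 and 407 to 453 CPM. The part of the split and of these markers in the ratios was not tested.

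Macrophage-like cells, the class with the highest levels, kept Fos and Jun and had less Junb and Nr4a1 in CO. The numbers of members past the mark were near the shares of all genes in this class. Fos stood at 12130, 11760 and 12501 CPM in NC and at 12123, 14111 and 11766 CPM in CO, and Jun had a log2 ratio of 0.0043, both with overlap. Junb, often an inhibitor of Jun within AP-1, stood at 6196, 5758 and 4607 CPM in NC and at 3958, 3019 and 3014 CPM in CO, 1.66-fold lower (log2 ratio -0.73, interval -0.78 to -0.68). Nr4a1, which restrains inflammatory genes in macrophages, stood at 1328, 1308 and 1214 CPM in NC and at 748, 788 and 775 CPM in CO, 1.66-fold lower. In neither gene did the groups overlap. Nr4a3 went the other way, from 137, 105 and 109 CPM to 215, 224 and 198 CPM, 1.81-fold higher and without overlap. These 2 genes lower and 1 higher past the mark compare with 18.4% and 16.8% of 7307 genes in this class. Fosb was 1.24-fold higher and Egr1 lower (log2 ratio -0.29), both without overlap. The share of all genes without overlap in this class is not given here. Nearly all cells of the class lay in 1 cluster (99.0% of NC and 99.7% of CO). Microglia markers summed to 1018 to 1077 CPM in NC and 1180 to 1355 CPM in CO. Oligodendrocyte markers summed to 427 to 559 CPM in NC and 993 to 1207 CPM in CO, choroid plexus markers to 1211 to 1432 and 461 to 822 CPM, and the part of these was not tested. With the stricter gate, which leaves 125 NC and 107 CO cells, Nr4a1 had a log2 ratio of -1.11 and Junb of -0.54, short of the mark. With classes taken from clusters neither passed it (-0.40 for Nr4a1 and -0.33 for Junb).

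Mural-like cells, those that wrap vessels, held a pair of clusters with unlike ratios of the members. In the small cluster 31 the number of members higher past the mark was near the share of all genes. Over the whole class 4 of 9 genes passed the 1.5-fold mark upwards, against 17.1% of 7999 genes, and none was lower, against 16.4%. Without NC replicate 1 there were 1 higher and 1 lower, and without CO replicate 2 there were 2 higher and 1 lower. Atf3 stood at 1031, 1737 and 791 CPM in NC and at 2505, 2640 and 2173 CPM in CO, 2.08-fold higher. The class was split by cluster after its values were seen. Cluster 12, with 380 NC and 366 CO cells, had the pericyte genes Kcnj8 (998 and 1735 CPM) and Abcc9 (3612 and 5015 CPM) in NC and CO. The pericyte genes Higd1b (3283 and 3069 CPM) and Rgs5 (4248 and 3753 CPM) were not higher in CO there, nor were the muscle genes Acta2 (238 and 93.0 CPM), Tagln (158 and 66.4 CPM) and Myh11 (57.5 and 9.66 CPM). In cluster 31, with 31 NC and 42 CO cells, the smooth muscle gene Myh11 stood at 5673 and 7806 CPM, Acta2 at 12720 and 7905 CPM, Tagln at 23985 and 23024 CPM, and Kcnj8 at 0 and 5.54 CPM.

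In cluster 12 all 8 genes with enough counts were at least 1.5-fold lower in CO, against 15.4% of 7219 genes. In 6 of them all CO libraries were below all NC libraries. The share of all genes without overlap in this cluster is not given here, so that count has no yardstick. Fos stood at 2380, 2042 and 2680 CPM in NC and at 787, 842 and 955 CPM in CO (log2 ratio -1.47, interval -1.60 to -1.35). Junb stood at 810, 952 and 1200 CPM in NC and at 53.2, 298 and 117 CPM in CO (log2 ratio -2.66). Atf3 stood at 197, 472 and 453 CPM in NC and at 67.3, 85.2 and 8.06 CPM in CO (log2 ratio -2.77). The lowest NC library was above the highest CO library in each of these genes. In cluster 31 levels were far higher in both groups, and 8 of 9 genes were above the NC level in CO. Of the 9, 3 were higher past the mark, near the 27.2% of 4061 genes. The remaining gene, Nr4a2, was lower past the mark, from 1033 to 456 CPM (log2 ratio -1.18), with overlap of libraries. Of the 4061 genes, 894 were lower by that mark. Atf3 was the only gene there whose libraries did not overlap, at 3712, 5083 and 2042 CPM in NC and 6645, 6150 and 5531 CPM in CO. With 9 to 15 cells per library, the higher class totals rest on few cells of cluster 31: they gave 3249 of the 3294 Atf3 UMIs of the CO class. Choroid plexus markers summed to 1773 to 2089 CPM in the NC and 609 to 786 CPM in the CO mural-like libraries, and the part of free RNA was not tested. With every cell thinned to 2000 UMIs the class ratios of Jun (-0.33) and Egr1 (-0.28) were below 0, and with the stricter gate, which leaves 75 NC and 88 CO cells, that of Atf3 was -1.33.

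In astrocyte-like cells (Agt, Slc1a2 and Cldn10 positive) the 3 nuclear receptors were all higher in CO. Nr4a1 stood at 82.8, 33.1 and 43.2 CPM in NC and at 181, 152 and 166 CPM in CO, 2.99-fold higher (log2 ratio 1.58, interval 1.28 to 1.89). Nr4a2 stood at 1.25, 12.6 and 13.4 CPM in NC and at 49.3, 30.1 and 35.4 CPM in CO (log2 ratio 2.13, interval 1.39 to 2.95). Nr4a3 stood at 2.51, 6.30 and 7.45 CPM in NC and at 36.2, 18.5 and 45.7 CPM in CO (log2 ratio 2.67, interval 1.76 to 3.73). Every CO library was above every NC library in all 3 receptors, against 14.3% of 9782 genes. Past the mark were 4 of 9 genes, with Fosb as the fourth, against 14.4% of genes, and none was lower, against 15.8%.

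The counts behind the receptors were small. Nr4a1 had a UMI in 44 of 479 NC cells and 117 of 634 CO cells, Nr4a2 in 10 and 50 cells, and Nr4a3 in 5 and 33 cells. The pattern was found in the main cluster of the class, where NC cells (340, median 4066 UMIs) and CO cells (297, median 5270 UMIs) could be compared. There Nr4a1 stood at 35.8, 43.7 and 42.3 CPM in NC and at 121, 137 and 116 CPM in CO (log2 ratio 1.63). In that cluster Nr4a2 had a log2 ratio of 1.85 and Nr4a3 of 3.32, on 4 UMIs in NC and 45 in CO, both without overlap, and 3 of 9 genes passed the mark upwards against 17.3% of genes. The AP-1 genes and Egr1 did not share this: Fos was lower there (log2 ratio -0.55, interval -1.09 to -0.017) and Jun within its interval of 0 (log2 ratio -0.13, interval -0.45 to 0.19). Barcodes under 500 UMIs had less Nr4a1 in CO, 252 CPM, than in NC, 328 CPM, as had microglia-like cells. Microglia markers in astrocyte-like cells summed to 140 to 184 CPM in NC and 163 to 250 CPM in CO. All 13 astrocyte markers were higher in CO, with sums of 20028 to 21744 CPM in NC and 24726 to 27514 CPM in CO. Choroid plexus markers summed to 1152 to 1419 CPM in NC and 608 to 655 CPM in CO, and pituitary markers to 228 to 1826 and 10.4 to 17.1 CPM. The part of these was not tested. Most of the Fos UMIs of the class, 499 of 722 in NC and 837 of 1082 in CO, came from a cluster of 31 and 47 cells that also held neuron-like and precursor-like cells. NC replicate 1 had the highest NC level of Egr1 (390 CPM, against 72.5 and 90.9 CPM), Fos, Fosb, Jun, Junb, Atf3 and Nr4a1, and without it all 9 genes passed the mark upwards, with a median log2 ratio of 1.36. The cells were also shallower in CO (median 2319 UMIs, against 3568 in NC).

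**Figure D5:**
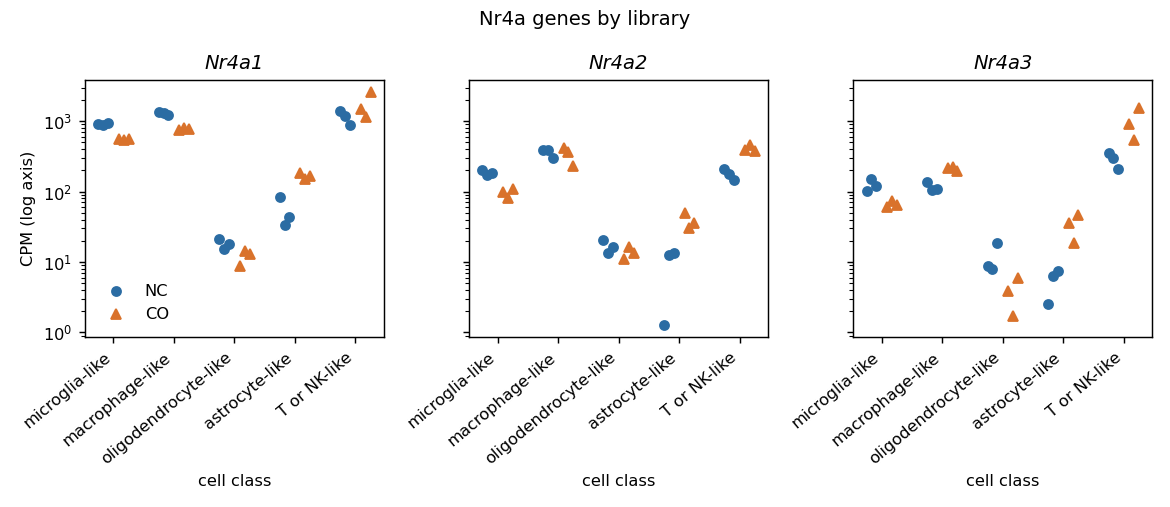
Level of Nr4a1, Nr4a2 and Nr4a3 in 5 classes, in CPM on a log axis, with 1 point per library. The CO points lie below the NC points in microglia-like cells and above them in astrocyte-like cells for all 3 genes, while in macrophage-like cells Nr4a1 is lower and Nr4a3 higher in CO.

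The 3 receptors are close relatives that bind the same DNA element, yet they did not move as one across classes. Nr4a3 was at least 1.5-fold higher in CO in 5 of 9 classes (astrocyte-like, choroid plexus-like, mural-like, macrophage-like and ependymal-like). It was at least 1.5-fold lower in 3 (microglia-like, endothelial-like and oligodendrocyte-like). In the 5 classes 14.3% to 17.1% of genes were higher by that mark, and in the 3 classes 9.23% to 14.7% lower. Its libraries overlapped in mural-like and endothelial-like cells, and the log2 ratio was -0.62 in mural cluster 12 and 0.57 in cluster 31. The sign of Nr4a3 turned in 1 of 13 other settings in each of choroid plexus-like, ependymal-like, mural-like and endothelial-like cells. Nr4a1 was lower past the mark in 4 classes, where 9.23% to 18.4% of genes were, and higher in 1, where 14.4% were. One of the 4, ependymal-like cells, rested on NC replicate 1, at 104 CPM against 27.9 and 38.5 CPM in the other NC libraries, and without it the log2 ratio went from -0.93 to -0.14. In oligodendrocyte-like cells, another of the 4, the log2 ratio of Nr4a1 was -0.06 in cluster 2, which held 63.4% of NC and 70.4% of CO cells. Nr4a1 and Nr4a3 went in opposite directions in macrophage-like cells (log2 ratios -0.73 and 0.86). Egr1 was below 0 in 8 of 9 classes, with mural-like cells as the exception. In astrocyte-like cells its log2 ratio was -0.12, and it passed the mark upwards without NC replicate 1. The sign turned in 3 of 13 other settings in astrocyte-like cells, and also in 3 of 13 in mural-like cells (log2 ratio 0.66).

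Choroid plexus-like cells (Ttr, Htr2c and Sostdc1 positive) had less Fos, Egr1 and Nr4a2 and more Nr4a3 in CO. Fos stood at 859, 1125 and 986 CPM in NC and at 632, 610 and 614 CPM in CO, 1.60-fold lower. Egr1 was 1.72-fold lower, from 626, 648 and 626 CPM to 468, 354 and 287 CPM. Neither overlapped between groups. Nr4a2 was also lower (log2 ratio -1.0) on 79 and 26 UMIs, with overlap. Nr4a3 stood at 2.81, 5.85 and 4.84 CPM in NC and at 14.9, 26.6 and 18.2 CPM in CO, 4.24-fold higher on 32 and 89 UMIs. These 3 genes lower and 1 higher compare with 17.2% and 14.3% of 9566 genes. The cells had a median of 31587 UMIs in NC and 6613 UMIs in CO, and 83.8% of NC but 40.6% of CO cells were in the deeper cluster. Within that cluster Nr4a3 had a log2 ratio of 2.24 and Egr1 of -0.72. In ependymal-like cells (Tmem212 and Ccdc153 positive) Fos stood at 2499, 1662 and 1948 CPM in NC and at 1100, 1311 and 1581 CPM in CO, 1.58-fold lower without overlap. Nr4a3 was 1.76-fold higher, from 53.6, 71.8 and 53.5 CPM to 88.1, 140 and 75.9 CPM. The 2 genes lower and 1 higher past the mark compare with 17.1% and 15.5% of 9215 genes. Without NC replicate 1 there were 0 lower and 3 higher, and without CO replicate 2 there were 4 lower.

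The sparse classes are given as values only. In the T or NK-like cells (104 in NC, 69 in CO) all 9 genes had higher levels in CO and 7 passed the mark, against 23.2% of 4671 genes. Nr4a3 stood at 353, 299 and 206 CPM in NC and at 916, 546 and 1528 CPM in CO, 3.83-fold higher. Junb was 2.11-fold and Fosb 2.21-fold higher, also without overlap. The genes most particular to the class included Cd3d, Cd3g and Cd3e in NC but not in CO, where Gzma, Klrd1 and Prf1 were among them. The part of a different mix of T and NK cells was not tested. In monocyte or dendritic-like cells (213 and 104) 3 genes were higher past the mark, against 21.6% of 6555 genes, with Nr4a3 from 455, 491 and 411 CPM to 966, 1952 and 1007 CPM. In fibroblast-like cells (103 and 69) 2 genes were lower past the mark, against 23.5% of 8282 genes. Of these, Egr1 stood at 2929, 3270 and 3114 CPM in NC and at 1937, 1605 and 1670 CPM in CO, 1.78-fold lower.

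Genes that act around these factors were read from 5 lists. In microglia-like cells, of 25 other immediate early genes 4 were at least 1.5-fold lower and 1 higher, with Gadd45b, a stress-induced regulator of DNA demethylation, at 123 CPM in NC and 64.6 CPM in CO. The median of that list was -0.17. None of 15 AP-1 and bZIP partners was lower past the mark and 1 was higher, Jdp2, a partner of Jun that represses AP-1, from 95.5 to 167 CPM. Of the SRF, CREB and MEF2 factors that act upstream, 1 of 14 was lower and none higher. Of 18 feedback inhibitors 2 were lower, and of 16 kinases of the ERK, JNK and p38 cascades 2 were lower, with none higher in either list, beside 9.61% of all genes lower.

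In oligodendrocyte-like cells 8 of 23 other immediate early genes were lower and 1 higher, with a median of -0.45, beside 9.23% of all genes lower and 7.87% higher. Btg2, an antiproliferative gene, went from 169 to 84.0 CPM, and Sgk1, a kinase induced by glucocorticoids, from 728 to 1297 CPM. In macrophage-like cells 9 of 16 feedback inhibitors were lower and none higher, with a median of -0.61, beside 18.4% and 16.8% of all genes. Nfkbia, the inhibitor of NF-kB that is also its target, went from 3965 to 1704 CPM there. In endothelial-like cells the same list had 7 of 17 higher and none lower, beside 13.4% and 14.7% of all genes, with Nfkbia from 1103 to 2298 CPM. There Crem, a CREB relative, went from 133 to 414 CPM and Maff, a small Maf factor, from 74.9 to 250 CPM.

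Over the 18 combinations of class and group, the genes whose levels were most like the mean of the 9 members were Klf6 (Pearson r 0.96), Dusp1 (0.96), Sik1 (0.94), Ndel1 (0.93), Jund (0.92) and Ccnl1 (0.92), out of 6677 genes compared. Among the members, Junb followed the mean of the others most closely (0.95) and Nr4a3 least (0.76). The points of a class share their cells' libraries, and these values are a description.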

How the data were processed

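Single-cell RNA libraries from the cerebral hemisphere of 3 control and 3 carbon monoxide-poisoned rats were analysed. The deposited values are raw UMI counts per gene and barcode, made with Cell Ranger against Rnor_6.0, per the submitters' processing notes (no version was stated). Barcodes needed 500 UMIs and 200 genes or more, which left 38027 of 42293, and Scrublet doublets were removed (594 NC, 891 CO). In CO replicates 1 and 3, where it called 2 cells each, the highest 6% of scores were removed instead. A cell joined a class when at least 3 markers had a UMI and the second-best class reached at most 0.6 of the best; cells were clustered with scanpy 1.11.5 without the members. Counts were summed per class and group and scaled with TMM factors (edgeR 4.0.16), and genes with at least 30 counts were compared. The script was tested on simulated data: in microglia-like cells the intervals held 95.3% of 11513 unchanged genes, and 99% of 100 genes changed 2-fold passed 1.5-fold. In astrocyte-like cells these were 96.1% of 9582 and 91% of 100. The simulated counts held counting error only, so spread between cells was not part of the test. Library total counts ran from 39494470 to 47322264. The design text names 3 rats per group, but over all genes libraries of a group differed on average hardly more than parts of 1 pool. Each group is therefore 1 sample and no test was made. The members and lists were chosen with earlier results of these data known. Genes outside the set are named as the 2 highest and 2 lowest ratios per list and the 6 most alike profiles, except the pericyte and muscle genes, chosen after their values were seen. Alternatives were another scaling, no count filter, doublets kept, deeper or thinned cells, other class definitions and leaving out each library.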

Additional observations from a re-analysis of the deposited data

Results flagged for a closer look

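In 6 genes a class with all 3 CO libraries below NC stood beside a class with all 3 CO libraries above NC. Over all pairs of these classes with a gene, 17.3% were all below and 17.4% all above. How many of all genes had both kinds of class was not counted, so the 6 genes may not be unusual. Fos had a log2 ratio of CO over NC of -0.67 in choroid plexus-like and 0.23 in mural-like cells, and Fosb of -1.04 in neuroblast-like and 0.31 in macrophage-like cells. Atf3 had -0.90 in oligodendrocyte-like and 1.06 in mural-like cells. In cluster 12, which held 92.5% of NC and 89.7% of CO mural-like cells, Fos had -1.47 and Atf3 -2.77. The mural-like class values of these 2 genes thus rest on the 31 NC and 42 CO cells of cluster 31. Nr4a1 had -0.73 in macrophage-like and 1.58 in astrocyte-like cells. Nr4a2 had -0.94 in microglia-like and 2.13 in astrocyte-like cells. Nr4a3 had -1.64 in oligodendrocyte-like and 2.67 in astrocyte-like cells. The difference between the classes was not tested in any of these genes.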

How the results depend on the processing

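No paired analysis was possible because each group is counted as 1 sample and the results come from no test. Of 81 pairs of class and gene, 48 kept their sign under all 13 other settings, as did 23 of the 32 pairs past 1.5-fold. The 21 pairs lower in CO ranged from 18 to 24 with each library left out, and the 11 pairs higher from 10 to 16. The stricter gate gave 30 lower and 6 higher among the 70 pairs with at least 30 counts, or 34 and 10 among all 81, and classes from clusters gave 15 and 8. The median log2 ratio in microglia-like cells was -0.53, and -0.59 scaled by total counts, -0.51 in thinned cells, -0.60 with the stricter gate and between -0.55 and -0.50 with each library left out. Within clusters 0, 1, 3, 5 and 6, an alternative chosen after seeing the data, it was -0.37, -0.51, -0.62, -0.10 and -0.59. Signs turned with the stricter gate for Nr4a3 in endothelial-like (0.13), choroid plexus-like (-0.15), ependymal-like (-0.48) and monocyte or dendritic-like cells (-1.04), Nr4a1 in oligodendrocyte-like (1.16) and T or NK-like cells (-0.032), Fosb in T or NK-like cells (-0.37), Egr1 in fibroblast-like cells (0.16), and Jun (-0.21), Atf3 (-1.33) and Egr1 (-0.42) in mural-like cells. They turned in thinned cells for Jun (-0.33) and Egr1 (-0.28) in mural-like cells. With classes from clusters they turned for Fosb in astrocyte-like (-0.19), Egr1 (-0.20) and Nr4a3 (-0.49) in mural-like, and Nr4a2 (-0.50) and Nr4a3 (-1.27) in monocyte or dendritic-like cells. The stricter gate left 4 NC and 3 CO T or NK-like cells, 10 and 1 fibroblast-like cells, and 8 and 12 ependymal-like cells; otherwise the cause was not tested.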
